A study of Mus musculus with 2 samples.

Results

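The cells described here carried transcripts of a T-cell activation set led by Tnfrsf9, Lag3, Pdcd1 and Irf8. They came from CD4+ CD25+ cells sorted from Mycfl/flFoxp3Cre/WT female mice, described as healthy, in the spleen and in the lymph nodes. YFP+ and YFP- cells were sorted and run in 1 lane per tissue, so each of the 2 libraries mixes Myc-sufficient (WT) and Myc-deficient (KO) regulatory T cells of the same animals. Both libraries carry the floxed Myc alleles, and neither has a wild-type or Cre-free control library. Recombination is driven by Cre from one of the Foxp3 alleles, hence only in cells that use that allele. The sources used here give neither the ages of the mice nor whether several were pooled, and the libraries hold no label that says which cell was YFP+. A member had at least 1 unique molecular identifier (UMI, one counted transcript molecule) for 4 or more of 13 genes and fewer than 3 summed UMIs of the B-cell genes Cd79a, Cd79b and Ms4a1. The rule took 386 of 6543 spleen barcodes and 246 of 4820 lymph node barcodes that had at least 500 genes and at most 10% mitochondrial UMIs. In all 632 of 11363 barcodes were members. With 1 library per tissue no difference below has a replicate check and none was tested. Intervals are exact 95% intervals that cover counting error only.

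Regulatory T cells depend on the X-linked transcription factor Foxp3, and in female heterozygotes each cell uses one of its X chromosomes. When a T-cell receptor is engaged, calcium and kinase signals first switch on transcription factors of the Nr4a and Egr families, and NF-kB follows, helped by CD28. Receptors such as 4-1BB (Tnfrsf9), OX40 (Tnfrsf4), LAG-3 and PD-1 then appear at the surface, and the cell enlarges and makes ribosomes, a step in which Myc is a main driver. Resting cells instead hold Klf2, which maintains S1pr1 and L-selectin for recirculation.

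Among the rule genes, Tnfrsf9, Bcl2a1b and Bcl2a1d were detected in most members of both libraries. Marcksl1 was found in 63.0% of spleen members and Pdcd1 in 51.2% of lymph node members, and their promoters held no match to the AP-1 motif. Tnfrsf9, Bcl2a1b and Bcl2a1d are the rule genes whose promoters held a match to this motif, TGANTCA, the site of Fos and Jun dimers. Their promoter sequences are shown for that reason, from 250 bases before to 50 bases after the transcript start (RefSeq, GRCm38.p6), with the match in capitals. The windows are chr9:89199023-89199322 on the plus strand for Bcl2a1b, chr9:88731801-88732100 on the minus strand for Bcl2a1d and chr4:150927749-150928048 on the plus strand for the second Tnfrsf9 start.
Bcl2a1b: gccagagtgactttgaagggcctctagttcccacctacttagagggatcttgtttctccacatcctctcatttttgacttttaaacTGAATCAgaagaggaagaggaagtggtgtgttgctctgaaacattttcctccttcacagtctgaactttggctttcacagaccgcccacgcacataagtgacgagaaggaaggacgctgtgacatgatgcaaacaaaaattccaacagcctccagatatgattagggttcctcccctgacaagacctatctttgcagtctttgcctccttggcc
Bcl2a1d: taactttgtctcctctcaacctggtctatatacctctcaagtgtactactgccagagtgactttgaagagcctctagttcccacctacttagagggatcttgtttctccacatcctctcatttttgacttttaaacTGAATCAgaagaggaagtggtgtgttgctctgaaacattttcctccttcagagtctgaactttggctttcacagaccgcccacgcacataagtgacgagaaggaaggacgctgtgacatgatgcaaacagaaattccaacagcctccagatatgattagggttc
Tnfrsf9: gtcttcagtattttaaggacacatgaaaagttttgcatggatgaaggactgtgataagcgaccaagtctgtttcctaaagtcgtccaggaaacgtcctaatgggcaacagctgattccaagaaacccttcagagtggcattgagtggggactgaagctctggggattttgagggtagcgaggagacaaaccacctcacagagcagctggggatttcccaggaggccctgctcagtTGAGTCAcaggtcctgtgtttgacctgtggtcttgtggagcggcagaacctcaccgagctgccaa
The Bcl2a1b match began 164 bases before the start, the Bcl2a1d match 114 bases before it and the Tnfrsf9 match 15 bases before it. The A1 genes are near-copies that share the match TGAATCA, so they are not independent examples. The motif, searched on both strands, was found in 7.93% of 27025 promoters of this length, taken as 1 per gene. The rule genes were searched in all their entries, 15 promoters of 12 genes, so the share of all genes is not a like comparison. The first Tnfrsf9 start held no match. Promoters of 12 of the 13 genes were in the table, and no entry for Lag3 was matched. A NF-kB motif, searched as a fixed letter pattern, was found in 1.43% of the 27025 promoters and matched in Ccl1 at overlapping positions. Other forms of the NF-kB site were not searched, so promoters without this match may still hold such a site. TGACGTCA, found in 1.88%, matched in none of the 12. A match describes these letters and not a bound site.

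The 13 genes chose the members, so their levels are a description only. The transcriptional regulators come first. Nr4a1 and Nr4a3 are orphan nuclear receptors induced by antigen-receptor signals, Irf8 is an interferon regulatory factor also used by B and dendritic cells, and Hivep3 is a large zinc-finger protein. In members Nr4a1 stood at 173 CPM (UMIs of the gene scaled to a fixed total over the cells summed) in spleen and 75.5 CPM in lymph node, against 28.4 and 26.4 CPM in the other non-B cells of those libraries. Irf8 stood at 143 and 125 CPM in members, at 23.1 and 21.4 CPM in other non-B cells, and at 274 and 186 CPM in the B cells that the rule removed. The B-cell level was thus the higher one for Irf8. Hivep3 reached 134 and 87.1 CPM in members, against 17.97 and 15.8 CPM in other non-B cells.

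Surface proteins of activated T cells form the next group. Tnfrsf9 encodes the costimulatory receptor 4-1BB. It had 543 CPM in spleen members and 404 CPM in lymph node members, against 92.0 and 105 CPM in the other non-B cells. At least 1 Tnfrsf9 UMI was found in 82.1% of spleen members and 75.6% of lymph node members. The shares were 13.4% and 15.7% in other non-B cells, and 18.1% and 18.5% in non-member cells matched to members on depth. In B cells, which had median depths of 2338 and 3120 UMIs, they were 4.72% and 9.09%. Lag3, an inhibitory receptor for MHC class II, had 166 and 142 CPM in members against 13.04 and 23.2 CPM in other non-B cells. Pdcd1, which encodes the inhibitory receptor PD-1, had 174 and 148 CPM in members against 20.3 and 21.7 CPM elsewhere. Pdcd1lg2, which encodes the PD-1 ligand PD-L2, had 73.3 and 83.4 CPM in members against 7.35 and 14.6 CPM elsewhere.

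The remaining genes encode survival, secreted and cytoskeletal proteins. Bcl2a1b and Bcl2a1d encode mouse forms of the anti-apoptotic protein A1, an NF-kB target. Bcl2a1b had 463 and 400.0 CPM in members against 91.4 and 109 CPM in other non-B cells, and Bcl2a1d had 185 and 171 CPM against 22.8 and 24.2 CPM. The last 300 transcript bases of the A1 genes are 97.4% to 99.3% identical, so the split of 3' reads between Bcl2a1a, Bcl2a1b and Bcl2a1d is uncertain. Counting Bcl2a1b and Bcl2a1d as 1 gene lowered the member share to 5.09% in spleen and 4.29% in lymph node. Marcksl1, an actin- and calmodulin-binding protein, had 297 and 208 CPM in members against 44.9 and 24.7 CPM elsewhere.

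**Figure D1:**
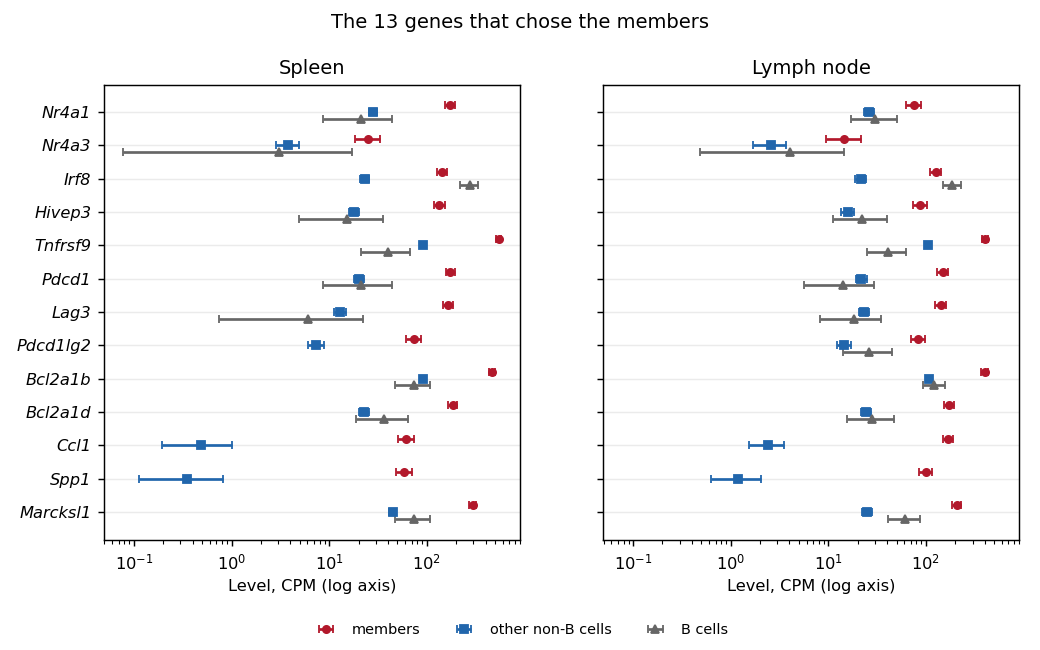
Level (CPM, log axis) of the 13 rule genes in members (red circles), other non-B cells (blue squares) and B cells (grey triangles), spleen on the left and lymph node on the right, with exact 95% Poisson intervals; points at 0 are not drawn. The members were chosen on these genes, and only Irf8 was higher in B cells (274 and 186 CPM) than in members (143 and 125 CPM).

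Ccl1 and Spp1 were different in kind, since they came from very few cells. Ccl1, a CCR8-binding chemokine, was found in 9 of 386 spleen members and 13 of 246 lymph node members, and 5 cells held 92.2% and 92.4% of its UMIs. Spp1 (osteopontin) was found in 7 and 8 members, and 5 cells held 98.2% of its UMIs in each library. In the lymph node 1 cell was positive for both genes, and in the spleen none was. The spleen Ccl1 cells held 35 Tnfrsf9 UMIs in 7 of the 9 cells and 26 Cd200 UMIs in 6 of them, and 2 of them held 22 Il2 UMIs. In the lymph node 11 of the 13 Ccl1 cells held Tnfrsf9 UMIs and 11 held Cd200 UMIs. All 7 spleen and all 8 lymph node Spp1 cells held Pdcd1 UMIs.

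At the threshold of the rule, the cells with exactly 3 of the 13 genes lie just outside and those with exactly 4 just inside. Tnfrsf9 had 404 CPM at 4 genes and 358 CPM at 3 genes in spleen, and 362 and 317 CPM in lymph node. Lag3 had 112 CPM at 4 genes and 56.2 CPM at 3 in spleen, and 111 and 91.6 CPM in lymph node. These bins held 179 and 293 spleen cells at 4 and 3 genes and 113 and 230 lymph node cells, and both genes are part of the rule.

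Membership depended strongly on how deeply a cell was sequenced. Members made up 1.04% of spleen and 0.370% of lymph node non-B cells below 1500 UMIs, 4.22% and 2.70% of those with 1500 to 3000, 10.5% and 9.13% of those with 3000 to 6000, and 36.9% and 38.2% of those with 6000 or more. The median depth was 3740.5 UMIs in spleen members and 4552 UMIs in lymph node members, against 1874 and 1950.5 UMIs in the other non-B cells. When every cell was thinned to 1200 UMIs and the rule applied again, 90 of 5914 spleen and 55 of 4458 lymph node non-B cells qualified (1.52% and 1.23%). All of them were already members, which the method fixes because thinning only removes UMIs. A larger cell with more RNA and a more deeply sampled cell cannot be told apart here. The unthinned shares of 5.90% (5.34 to 6.498) and 5.10% (4.50 to 5.76) of kept barcodes had overlapping intervals in the tissues and are not a frequency of activated cells. Of the 53 barcodes present in both libraries, 5 belonged to spleen members and 2 to lymph node members, and none was a member in both.

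**Figure D2:**
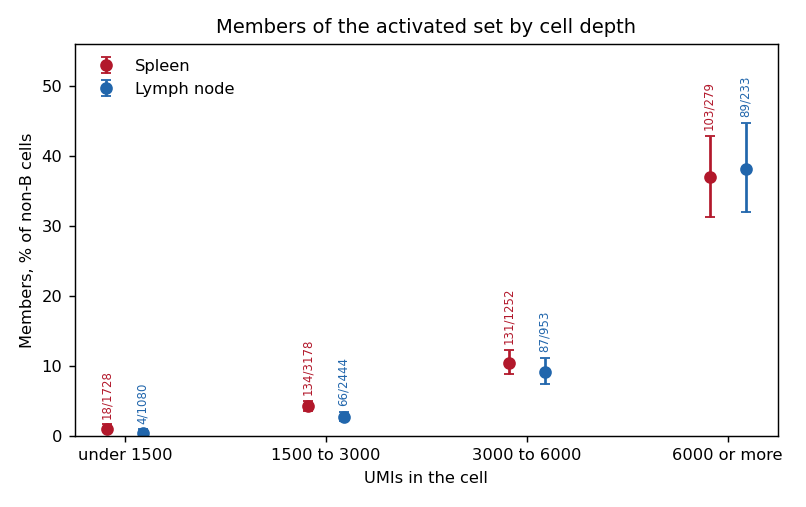
Share of non-B cells that were members (y axis, %) by the number of UMIs in the cell (x axis), spleen in red and lymph node in blue, with exact 95% binomial intervals and the counts beside each point. The share was 1.04% and 0.370% below 1500 UMIs and reached 36.9% and 38.2% from 6000 UMIs.

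The members were T cells by their other genes. All of the 10 T-cell markers were detected in both libraries, summing to 10454 CPM in spleen members and 9371 CPM in lymph node members, against 10521 and 10770 CPM in the other non-B cells and 4041 and 5161 CPM in B cells. The 11 B-cell markers summed to 885 and 656 CPM in members and 735 and 767 CPM in other non-B cells. The 12 myeloid markers summed to 6.85 and 3.04 CPM, with Csf1r, C1qc, Fcgr3, Cd14, S100a8, S100a9 and Adgre1 at 0 in both libraries. The 8 NK and innate lymphoid markers summed to 479 and 358 CPM, mostly from Nkg7, while Ncr1 was at 0. The 11 dendritic-cell markers summed to 156 and 142 CPM, mostly from Cst3, while Itgax and Clec9a were at 0. The 4 haemoglobin genes were at 0 in spleen members and summed to 110 CPM in lymph node members, against 0.763 and 368 CPM in other non-B cells. All 6 markers named for these cells belong to the rule, so they cannot check the label. Other activation genes gave a mixed picture, given by list in the following paragraphs. Against depth-matched cells, 6 of 18 NF-kB, 4 of 9 costimulatory and 4 of 16 immediate early genes were at least 1.5-fold higher in both libraries. The share over all 5063 genes was 5.89%. The rule chose the members of this contrast, so these counts describe the members and do not check the label. Ccl1 was present in few members, and the time since activation cannot be read from these data.

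Because of the depth dependence, each member was set beside a non-member, non-B cell of the same library with a UMI total within 10%. This gave 382 pairs in spleen and 227 in lymph node. Cells with 3 or more of 9 cycling genes numbered 37 and 41 among all members and 38 and 33 among the matched cells. Cells with 3 or more of 8 effector genes, called effector-type here, numbered 51 and 20 among members and 60 and 33 among matched cells. Over 5063 genes with a mean of at least 20 CPM, 10.4% were at least 1.5-fold higher in spleen members, 13% in lymph node members and 5.89% in both. At least 1.5-fold lower levels were found for 3.87%, 6.79% and 1.99% of genes. The median log2 ratio of all genes was 0.10 in spleen and 0.08 in lymph node, and list medians are given beside it. The rule used this contrast, so these counts describe the members and nothing is read from a count against its background.

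Of the genes that the rule did not use, those with the clearest higher level in both libraries included Tnfrsf4, Nkg7, Cd83 and Rgs16. Tnfrsf4, the costimulatory receptor OX40, had 1184 CPM in spleen members and 400.5 CPM in matched cells (ratio 2.96, 2.72 to 3.22), and 844 against 257 CPM in lymph node (3.28, 2.89 to 3.73). Nkg7, a protein of cytotoxic granules, had 476 against 66.6 CPM in spleen (7.15, 5.90 to 8.73) and 431 against 86.6 CPM in lymph node (4.98, 4.03 to 6.196). At least 1 Nkg7 UMI was found in 124 of 382 spleen members and 78 of 227 lymph node members, against 50 and 36 matched cells, and 4.72% and 11.8% of B cells had one. Cd83, a surface protein of activated lymphocytes, had 182 against 43.8 CPM in spleen (4.15, 3.23 to 5.37) and 195 against 42.1 CPM in lymph node (4.64, 3.42 to 6.41). Rgs16, a brake on G-protein signals from chemokine receptors, had 64.1 against 7.77 CPM in spleen and 61.2 against 4.95 CPM in lymph node.

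The other genes most clearly higher in both libraries were Rilpl2 (ratio 4.11 in spleen and 3.55 in lymph node), Itm2a (3.56 and 3.66), Bmyc (3.04 and 3.29), Eea1 (4.34 and 4.25), Il1r2 (3.71 and 8.91), Pdzk1ip1 (10.1 and 5.18), Nrgn (7.63 and 7.67), Igfbp7 (17.6 and 23.5), Angptl2 (8.96 and 13.9), Xcl1 (7.97 and 15.3) and Egr2. Eea1 tethers early endosomes, Il1r2 is a decoy receptor for interleukin-1, and Bmyc is a Myc-related gene. Some of these rested on few cells. The 5 cells with most Xcl1 UMIs held 62.5% of them in spleen and 84.7% in lymph node, whereas for Rilpl2 those shares were 8.92% and 16.3%. Xcl1, a chemokine for XCR1-bearing dendritic cells, was found in 12 spleen and 17 lymph node members, against 3 and 5 matched cells.

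Of the immediate early genes outside the rule, 16 of 23 passed the level of 20 CPM. Of these, 4 were at least 1.5-fold higher in both libraries (Egr1, Egr2, Nab2 and Dusp2) and 1, Klf6, was lower. The list median was 0.32 in spleen and 0.20 in lymph node on the log2 scale. Its sign depended on the processing, since it was -0.05 and -0.48 without depth matching, and -0.03 in lymph node without cells holding other types' markers. Egr2, an Nfat-induced zinc-finger factor, had 58.0 CPM in spleen members and 12.8 CPM in matched cells (4.55, 2.87 to 7.48). In lymph node it had 35 UMIs in members and 1 UMI in matched cells (34.6, 5.82 to 1410). Nab2, a co-repressor of Egr proteins, had 132 against 34.9 CPM in spleen and 89.0 against 33.0 CPM in lymph node. Dusp2, a phosphatase of MAP kinases, had 630.1 against 342 CPM in spleen and 533 against 328 CPM in lymph node, where its log2 ratio was -0.0016 without matching. Of the AP-1 genes, Fos, Junb and Jun, named after their values were seen, were not 1.5-fold higher in either library. Batf, an AP-1 family gene of another list, was at least 1.5-fold higher in both (1.56 and 2.02). Fos had ratios of 1.14 and 1.42, Junb had 1.16 and 1.13, and Jun had 0.715 and 0.664, the latter over 1.5-fold lower.

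Among genes that tune receptor signalling, 19 of 20 passed. Of these, 7 were at least 1.5-fold higher in both libraries and 1, the diacylglycerol kinase gene Dgka, was lower. Zap70, the kinase that binds the engaged receptor, had 245 against 117 CPM in spleen (2.10, 1.77 to 2.48) and 269 against 113 CPM in lymph node (2.38, 1.94 to 2.92). Tagap, a GTPase-activating protein, had ratios of 3.42 and 2.75, Spry1, an inhibitor of Ras signalling, 3.55 and 8.20, and Nfatc1, a calcium-driven transcription factor, 2.60 and 2.42. Cd69, an early activation antigen that retains cells in tissue, was under 1.5-fold, at 273 against 192 CPM in spleen (1.42, 1.24 to 1.63) and 186 against 132 CPM in lymph node (1.41, 1.15 to 1.74).

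All 18 of the 20 listed NF-kB pathway genes that passed had ratios above 1 in both libraries, 6 of them at least 1.5-fold in both, with list medians of 0.61 in spleen and 0.42 in lymph node. Rel, the subunit c-Rel, had 115 against 36.6 CPM in spleen (3.15, 2.38 to 4.22) and 66.9 against 26.4 CPM in lymph node (2.54, 1.67 to 3.94). Relb and Nfkb2, partners in the alternative pathway, had ratios of 2.52 and 2.11 in spleen and 1.69 and 1.98 in lymph node. The inhibitors that NF-kB itself induces were higher too. Nfkbia had 797 against 472 CPM in spleen and 791 against 502 CPM in lymph node, and Nfkbid had ratios of 2.85 and 1.62. In lymph node the log2 ratio of Nfkbia was -0.023 without matching, and that of Relb was -0.33 at 1200 UMIs.

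Among receptors and ligands, 4 of 9 costimulatory genes were at least 1.5-fold higher in both libraries, and none was lower. Besides Tnfrsf4 these were Tnfrsf18 (GITR), with ratios of 1.77 and 1.57, the TNF receptor gene Tnfrsf1b with 1.81 and 1.62, and Cd40lg, the ligand of CD40, with 4.34 and 2.22. In lymph node the log2 ratio of Tnfrsf18 was -0.013 without matching and that of Tnfrsf1b was -0.17 without cells holding other types' markers. Cd28 stood at 1.31 and 1.19, and 3 of the 9 genes had ratios below 1 in lymph node. Of 6 coinhibitory genes, 4 were higher in both: Cd200 (2.89 and 3.81), Btla (1.67 and 2.93), Vsir (1.64 and 1.69) and Cd160 (12.8 and 2.94). Ctla4 was close to the matched cells, with 249 against 198 CPM in spleen (1.26, 1.09 to 1.45) and 167 against 140.2 CPM in lymph node (1.19, 0.969 to 1.47). Of 9 cytokine and chemokine genes, 7 were higher in both libraries. Il2, the growth factor that Foxp3 represses in regulatory T cells, had 85 UMIs in spleen members and 18 in matched cells (4.70, 2.80 to 8.31), and 29 against 14 UMIs in lymph node (2.05, 1.05 to 4.20). In spleen 5 cells held 68.2% of the Il2 UMIs of members. Tnfsf8 (CD30 ligand) had ratios of 2.22 and 3.47, Tnfsf11 (RANKL) 3.52 and 2.46, and Tnf 2.13 and 2.03, with a log2 ratio of -0.017 in lymph node at 1200 UMIs.

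Of 10 genes linked to anergy and exhaustion that passed, 4 were at least 1.5-fold higher in both libraries and 1 was lower (Cd200 and Dgka among them are also in lists above), with list medians of 0.10 and 0.50, of which the spleen value kept its sign in 6 of 10 alternatives. Tox, a nuclear factor of exhausted and regulatory T cells, had 155 against 86.5 CPM in spleen and 174 against 85.0 CPM in lymph node. Nt5e, the adenosine-forming enzyme CD73, had ratios of 2.37 and 3.49, and Batf, an AP-1 family partner of Irf4, 1.56 and 2.02. Within the Bcl-2 family, Bcl2l1 (Bcl-xL) had 65.7 against 31.6 CPM in spleen and 41.6 against 18.1 CPM in lymph node, while Bcl2 had 233 against 484 CPM and 207 against 271 CPM. Of the 10 interleukin-2 and STAT5 response genes, Ccnd2 alone was at least 1.5-fold higher in both libraries (1.68 and 1.77), and Socs3 alone was lower in both (0.465 and 0.433).

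All 30 ribosome-making and growth genes that passed, of 34 listed, had ratios above 1 in both libraries, and 11 were at least 1.5-fold higher in both. Their medians were 0.60 in spleen and 0.64 in lymph node. Srm, which makes the polyamine spermidine, had 131 against 42.2 CPM in spleen (3.12, 2.399 to 4.09) and 84.9 against 24.7 CPM in lymph node (3.43, 2.27 to 5.34). Odc1, the first enzyme of polyamine synthesis, had ratios of 2.22 and 2.77, and the nucleolar genes Nop58, Gnl3 and Nop16 had 2.35, 2.34 and 2.06 in spleen and 2.19, 2.26 and 2.52 in lymph node. At 1200 UMIs the spleen log2 ratio of Nop16 was -0.29. Myc had 100 UMIs in spleen members and 88 in matched cells, or 55.2 against 48.8 CPM (1.13, 0.841 to 1.52). In lymph node it had 54 against 28 UMIs, or 44.1 against 23.1 CPM (1.91, 1.19 to 3.13). These 3' reads cover the transcript end, and the labels do not name the deleted part of Myc, so Myc UMIs do not check the deletion in any cell.

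Metabolic and translation genes differed by less. The 78 ribosomal protein genes had medians of -0.18 and -0.10, and 70 of them lay below 0 in both libraries, none by 1.5-fold. Of 12 glycolytic genes, 1 was 1.5-fold higher in both, Pgam1, at 199 against 125 CPM in spleen and 170 against 85.0 CPM in lymph node. Among chaperones, Hspa5 (BiP), the main chaperone of the endoplasmic reticulum, had ratios of 1.63 and 1.98, and Hsp90ab1 had 1.35 and 1.52. Respiratory chain genes, counted here with their assembly factors, had medians of 0.10 and 0.09, beside 0.10 and 0.08 for all genes.

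The genes lower in members included those of resting and recirculating cells. Of 20 such genes, 11 were at least 1.5-fold lower in both libraries and none was higher in both. The list medians were -0.84 in spleen and -0.70 in lymph node. Klf2, the factor that maintains recirculation, had 308 CPM in spleen members and 722 CPM in matched cells (0.426, 0.385 to 0.471), and 246 against 600 CPM in lymph node (0.410, 0.357 to 0.469). S1pr1, the receptor for exit into blood and lymph, had 36.4 against 89.3 CPM in spleen and 38.4 against 90.7 CPM in lymph node. Dapl1 had ratios of 0.244 and 0.130, with a log2 ratio of 0.95 in lymph node at 1200 UMIs, Ly6c1 0.2204 and 0.321, and Igfbp4 0.279 and 0.297. Txnip and Pik3ip1, inhibitors of glucose uptake and of PI3-kinase, had 0.533 and 0.415 in spleen and 0.489 and 0.457 in lymph node. Also lower were Tsc22d3 (GILZ, a glucocorticoid target, 0.435 and 0.434), Selplg (the selectin ligand PSGL-1, 0.512 and 0.468), Rasgrp2 (0.435 and 0.484), Cd7 (0.380 and 0.275), Ripor2 (0.475 and 0.387) and Ms4a4b (0.605 and 0.587).

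Of the genes of effector regulatory T cells, 20 of 24 passed. Of these, none was 1.5-fold higher in both libraries and 5 were lower in both: S100a6, Lgals3, Ccr2, Crip1 and Vim. Crip1 had 1083 against 1737 CPM in spleen and 913 against 2108 CPM in lymph node, and Vim (vimentin) had 554 against 1008 CPM and 301 against 748 CPM. These directions depend on the matching: without it the spleen log2 ratios were 0.0030 for Crip1, 0.31 for Lgals3, 0.33 for S100a6 and 0.13 for Vim. The list median of -0.32 in spleen was then 0.36, and it kept its sign in 7 of 10 alternatives. Cell-cycle genes gave 3 lower and none higher of 19, namely Birc5, Ccnb2 and Hmgb2. Against all other non-B cells without depth matching, Birc5, Ccnb2 and Hmgb2 were higher in members, so their direction here depends on the matching. Beside this, H2-Aa and H2-Ab1, MHC class II genes, had 5.52 and 8.28 CPM in matched spleen members and 109 and 147 CPM in the matched cells. These levels came from few cells: H2-Aa was found in 7 spleen members and 15 matched cells, and H2-Ab1 in 13 and 13. The 12 myeloid markers summed to 7.18 CPM in these members and 48.8 CPM in the matched cells, and the 11 B-cell markers to 907 and 1417 CPM. In lymph node the B-cell sums were 762 CPM in members and 845 CPM in matched cells. The part of these other cell types in the lower genes was not tested on its own. Cells with their markers were left out in an alternative setting, but those markers include Nkg7 and Cst3. Nkg7 was itself higher in members, with a UMI in 124 of 382 spleen members against 50 matched cells. The filter therefore also removed members for a gene of their own, and it broke the depth pairs. When every member and matched cell with a UMI of a B-cell, CD8, NK, dendritic or myeloid marker was left out, 118 and 62 members stayed, with 159 and 80 matched cells. Then 420 genes were higher and 172 lower in both libraries, against 298 and 101 with all pairs.

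**Figure D3:**
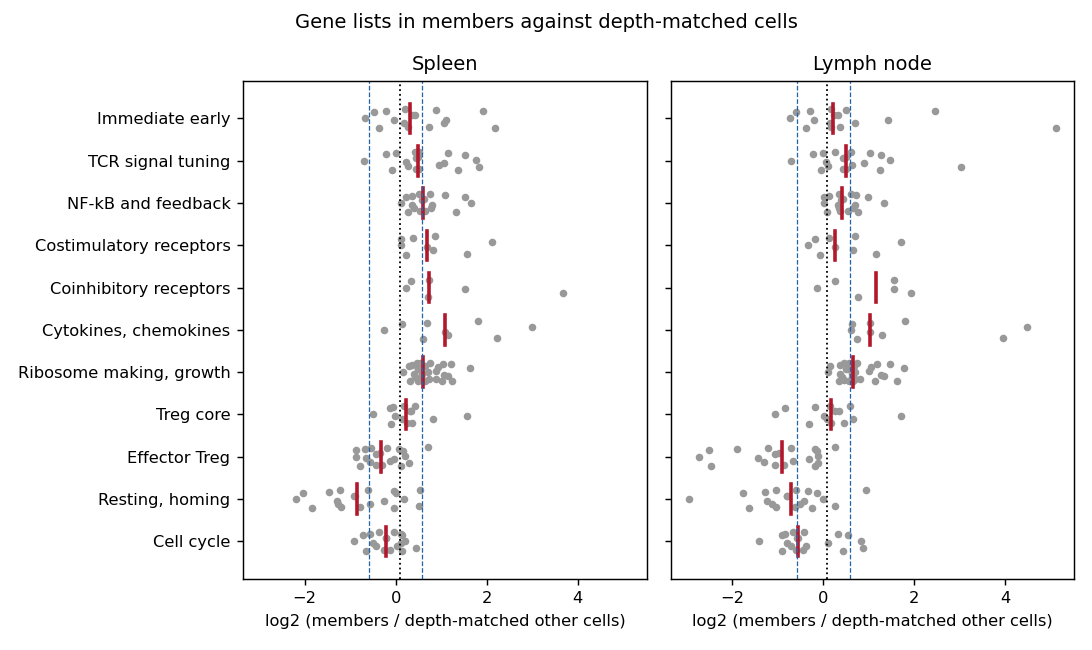
Log2 ratio of members over depth-matched other cells (x axis) for each gene of 11 lists (grey points) with the list median (red bar), spleen on the left and lymph node on the right; dashed lines mark 1.5-fold and the dotted line the median of all genes. The NF-kB genes (medians 0.61 and 0.42) and growth genes (0.60 and 0.64) lie wholly above 0, and the resting and homing genes mostly below it (-0.84 and -0.70).

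The same genes were followed by the number of rule genes detected, from 0 to 6 or more, within cells of 1500 to 3000 UMIs. These bins held between 28 and 1842 cells in spleen and between 13 and 1314 cells in lymph node. Median depth still differed, from 1938 UMIs at 0 rule genes to 2340 at 6 or more in spleen and from 1906.5 to 2499 in lymph node. Tnfrsf4 had 273 CPM at 0 rule genes, 807 at 2, 1722 at 4 and 1770 at 6 or more in spleen, and 246, 608, 1247 and 2416 CPM in lymph node. Klf2 had 1380 CPM at 0, 939 at 2, 708 at 4 and 195 at 6 or more in spleen, and 1405, 786, 238 and 64.4 CPM in lymph node. Both genes already differed among cells below the threshold of the rule. The steps were not all in 1 direction, since lymph node Klf2 had 672 CPM at 5 rule genes, from 16 cells. Tsc22d3 had 667 CPM at 0 and 110 at 6 or more in spleen, and 678 and 64.4 CPM in lymph node. Myc had 33.8 CPM at 0 and 97.6 at 6 or more in spleen, and 28.5 and 32.2 CPM in lymph node, with wide intervals in the last bins.

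**Figure D4:**
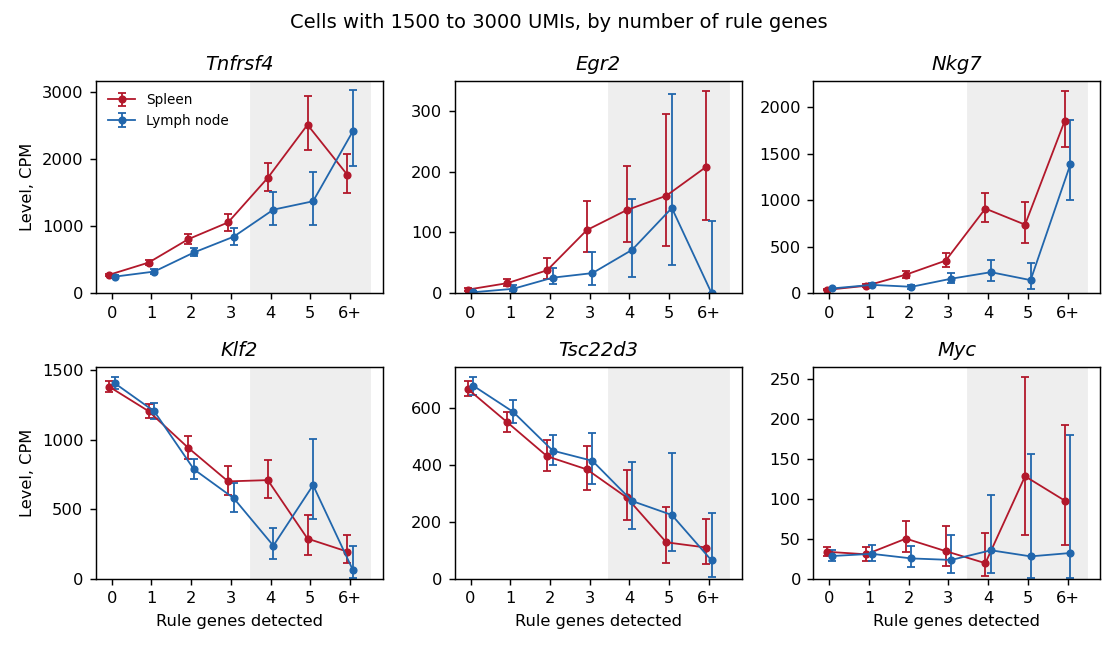
Level (CPM, y axes) of 6 genes by the number of rule genes detected (x axes) in cells of 1500 to 3000 UMIs, spleen in red and lymph node in blue, with exact 95% Poisson intervals; the grey band holds members. Tnfrsf4 was 273 and 246 CPM at 0 rule genes and 1770 and 2416 CPM at 6 or more, Klf2 1380 and 1405 CPM at 0 and 195 and 64.4 CPM at 6 or more, and Myc intervals overlapped in the last bins.

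Regulatory T-cell identity genes were near the level of matched cells. Foxp3 had 120.4 CPM in spleen members and 129 CPM in matched cells (0.932, 0.771 to 1.13), and 93.9 against 116 CPM in lymph node (0.807, 0.625 to 1.04). Il2ra, which encodes the sorted CD25, had 141 against 143 CPM in spleen (0.988, 0.828 to 1.18) and 92.3 against 72.6 CPM in lymph node (1.27, 0.953 to 1.70). Ikzf2 (Helios) had 836 against 668 CPM in spleen (1.25, 1.16 to 1.35) and 677 against 597 CPM in lymph node (1.13, 1.02 to 1.25). Of the 14 core genes, 2 were at least 1.5-fold higher in both libraries, Tnfrsf4 and Tnfrsf18, and none was lower in both. A UMI of Foxp3 or of ICRE was found in 145 of 386 spleen members (37.6%) and 81 of 246 lymph node members (32.9%), against 42.4% and 37.9% of matched cells. At 1200 UMIs per cell the shares were 16.8% and 11.8% in members, 16.2% and 17.2% in other non-B cells and 3.85% and 2.73% in B cells. Most members therefore had no detected Foxp3, and at this depth such a cell cannot be told from a conventional activated CD4 T cell.

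ICRE is a feature that the submitters added to the reference beside EYFP and CRE, and the sources used here do not say what it stands for. EYFP had 2 UMIs in the spleen library, 1 of them in a member, and CRE none. ICRE made up 10.4% (6.91 to 14.9) of ICRE plus Foxp3 UMIs in spleen members, 26 of 250, and 8.21% (4.17 to 14.2) in lymph node members, 11 of 134. Depth-matched cells had 8.98% (5.78 to 13.2) and 7.24% (3.67 to 12.6), so members and matched cells overlapped. All other non-B cells had 28.2% (26.3 to 30.1) and 24.4% (22.4 to 26.5), above the intervals of members. The share was 33.0% and 31.3% in cells with no rule gene, 16.7% and 15.7% with 2, and 6.41% and 11.8% with 6 or more. The last values rest on 5 ICRE UMIs in spleen and on 4 in lymph node, all from 1 cell. These bins were not matched on depth, and their median depth was 1736 and 1733 UMIs at 0 rule genes and 3894.5 and 5338 at 6. Effector-type cells had 1.69% and 1.15%. Of the member cells with only one of the transcripts, 12.9% in spleen and 7.41% in lymph node had ICRE. When the rule was applied at 1200 UMIs, the share was 15.4% (4.36 to 34.9) from 26 UMIs in spleen and 71.4% (29.0 to 96.3) from 7 UMIs in lymph node. With the members kept and only their counts thinned to 1200 UMIs, it was 16.25% (8.95 to 26.2) from 80 UMIs in spleen. In lymph node it was then 17.6% (6.76 to 34.5) from 34 UMIs. Other non-B cells thinned in the same way had 38.6% and 33.1%. The share was thus higher in thinned counts also without a new choice of members, with overlapping intervals in members. The data do not assign a genotype to any member.

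**Figure D5:**
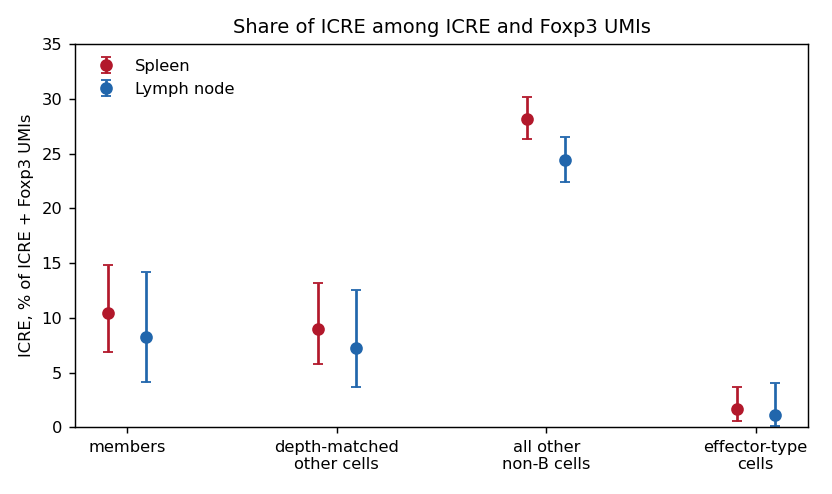
ICRE UMIs as a share of ICRE plus Foxp3 UMIs (y axis, %) in members, depth-matched other cells, all other non-B cells and effector-type cells (x axis), spleen in red and lymph node in blue, with exact 95% binomial intervals. Members (10.4% and 8.21%) overlap the depth-matched cells (8.98% and 7.24%) and lie below all other non-B cells (28.2% and 24.4%).

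Members with a Foxp3 or ICRE UMI were set beside members without one after thinning all to 1200 UMIs. At full depth 145 spleen and 81 lymph node members held such a UMI, so many cells without one after thinning do hold one. The thinned groups were 64 cells against 318 in spleen and 29 against 217 in lymph node, and 13.4% of 5225 genes were 1.5-fold higher and 2.74% lower in both libraries at these small sums. Ikzf2 had 1146 CPM in detected and 886 CPM in other members in spleen (1.29, 1.01 to 1.64) and 1236 against 833 CPM in lymph node (1.48, 1.04 to 2.06). Tnfrsf4 had ratios of 1.34 (1.10 to 1.62) and 1.82 (1.34 to 2.42), and Ctla4 had 2.13 (1.42 to 3.13) and 1.497 (0.643 to 3.10). Maf, a transcription factor of effector and follicular cells, had 15 against 24 UMIs in spleen (3.11, 1.51 to 6.17) and 12 against 34 in lymph node (2.64, 1.25 to 5.23). All 15 Il2 UMIs of the thinned spleen members and all 4 of the lymph node members were in cells without a Foxp3 or ICRE UMI after thinning, but those cells were also more numerous (ratio 0, upper bounds 1.39 and 11.3). Myc had 9 against 18 UMIs in spleen (2.48, 0.983 to 5.82) and 0 against 14 in lymph node (upper bound 2.26), so no direction is given.

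Effector-type cells are a further kind of antigen-experienced cell in these libraries, and the sets overlapped in 51 of 386 spleen and 20 of 246 lymph node members. Members that were not effector-type were matched on UMIs to effector-type cells that were not members, in 282 and 185 pairs, and 8.16% of 5247 genes were 1.5-fold higher and 11.5% lower in both libraries. The effector genes that defined the other set were low, as that rule fixes. Outside both rules, Cd200 had 245 CPM in spleen members and 20.8 CPM in effector-type cells (11.8, 7.89 to 18.3), and 270 against 24.4 CPM in lymph node (11.1, 7.004 to 18.5). Tnfrsf4 had 1154 against 658 CPM in spleen and 934 against 413 CPM in lymph node. Of 30 growth genes, 23 were at least 1.5-fold higher in members in both libraries and none was lower, with Srm at 136 against 29.7 CPM in spleen and 78.7 against 7.31 CPM in lymph node. Markers of other cell types moved in the same contrast, mostly in spleen. There the B-cell markers summed to 811 CPM in members and 2204 CPM in effector-type cells, the dendritic markers to 141 and 430.4 CPM, the myeloid markers to 7.64 and 72.1 CPM and the innate T markers to 5.35 and 106 CPM. In lymph node these sums were 827 and 1096 CPM, 175 and 214 CPM, 4.63 and 12.2 CPM, and 33.6 and 24.4 CPM. The NK marker sums were higher in members, at 588 against 188 CPM in spleen and 559 against 408 CPM in lymph node. They came mostly from Nkg7, with 576 against 86.6 CPM in spleen and 539 against 304 CPM in lymph node. Of the 2 NK markers that passed 20 CPM, 1 was at least 1.5-fold higher and 1 lower in members in both libraries. Of 19 cell-cycle genes, 11 were lower in members in both libraries, with sums of 2127 against 4858 CPM in spleen and 1790 against 4226 CPM in lymph node. The part of other cell types and of cycling in these differences was not tested. Foxp3 had 104 against 207 CPM in spleen (0.503, 0.405 to 0.621) and 104 against 162 CPM in lymph node (0.643, 0.486 to 0.846), so members had less of it than effector-type cells.

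Between the tissues, members differed at more genes than the other cells did. Of 5102 genes, 5.9% were at least 1.5-fold higher in spleen members than in lymph node members and 2.94% lower, against 0.601% and 0.861% of 4992 genes in the other non-B cells, whose sums are larger and so less noisy. Ccr6, a receptor for CCL20, had 110 UMIs in spleen members and 19 in lymph node members, or 58.0 against 11.6 CPM (5.01, 3.06 to 8.64), and 29.8 against 15.8 CPM in other non-B cells. Itgae, the integrin chain CD103, had 60.1 against 12.2 CPM in members (4.94, 3.05 to 8.39) and 45.6 against 18.6 CPM in other non-B cells. Il18r1, a chain of the interleukin-18 receptor, had 48.5 against 11.6 CPM (4.19, 2.54 to 7.28), and Apol9b, Eno3, Ncmap, Wnt10a and Lmna had ratios of 9.96, 3.65, 7.31, 12.7 and 6.22. Among members under 6000 UMIs the ratio was 1.49 (0.659 to 3.67) for Lmna, the lamin A gene, 5.89 (2.96 to 13.3) for Apol9b and 3.23 (1.77 to 6.37) for Ccr6. For Wnt10a it was 27.4 (4.67 to 1110), from 45 UMIs in spleen and 1 in lymph node.

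Lower in spleen members were Gimap7 (0.267), a GTPase of lymphocytes, Dtx1 (0.173), Art2b (0.169) and the integrin chain gene Itga4 (0.175). All 4 were lower in spleen among the other non-B cells as well, with ratios of 0.406, 0.326, 0.266 and 0.470. In members matched on UMIs, Dtx1 had 0.0698 and Itga4 0.115, and under 6000 UMIs Dtx1 had 0.273. Xcl1 had 16.9 against 75.5 CPM and Ccl1 61.2 against 167 CPM, in both cases from few cells. Their ratios were 0.224 and 0.365, and Xcl1 had 0.149 in matched members. Of the effector list, 10 of 19 genes were at least 1.5-fold higher in spleen members and 1 lower, and these counts were again 10 and 1 in 228 pairs of spleen and lymph node members matched on UMIs. Of the 14 core regulatory genes, 10 were 1.5-fold higher in spleen members, but 3 after that matching. The cell-cycle list changed direction, with a median of -0.35 in all members and 0.40 in matched ones. Members reached 25855 UMIs in spleen and 34865 in lymph node, and the part of the deepest cells in these sums was not tested beyond this matching and the members under 6000 UMIs, whose cell-cycle median was -0.07.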

How the data were processed

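Single-cell RNA was captured with a 10x 3' kit (V2 chemistry), per the labels' protocols, and Cell Ranger 3.0.1 and mm10 are named in the submitters' processing notes. The authors deposited raw UMI counts per gene and barcode, and rows that share a symbol were summed. The kept libraries held 16641089 UMIs in spleen and 13053739 UMIs in lymph node. Counts were summed over cells and given as CPM with exact Poisson intervals, ratios with exact conditional binomial intervals and shares with Clopper-Pearson intervals. Members were paired with other cells 1 to 1 on UMIs without replacement. With 1 library per tissue no p-value was computed. A gene at 0 in one group enters list medians and counts with a floor of 3 counts. No doublets were called. The ratio code was tested on simulated data.

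The members and the gene lists were chosen with earlier results of these data known. Named genes are the 13 rule genes, 7 fixed genes, the first 15 each way by interval bound, up to 5 per list and the first 8 each way between tissues, without mitochondrial, ribosomal, haemoglobin, T-cell receptor, immunoglobulin and Gm or Rik genes; Fos and Jun were named after their values were seen, and marker genes are given as a check. Alternatives changed the rule, matching, scaling, filter and thinning. Promoters are from RefSeq (GRCm38.p6). A marker result is not reported here.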

Additional observations from a re-analysis of the deposited data

Results flagged for a closer look

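Between the tissues, 4 genes differed in opposite directions in members and in the other non-B cells. The difference between these directions was not tested, and all 4 rest on 1 library per tissue. Ikzf2 was higher in spleen members than in lymph node members, with a ratio of 1.49 (1.37 to 1.62), against 0.884 in other non-B cells. It was 1.12 in members matched on UMIs and 1.06 (0.9495 to 1.18) in members under 6000 UMIs. Foxp3 had 1.58 (1.26 to 1.98) in members and 0.913 in other non-B cells, with 1.33 in matched members and 1.14 (0.841 to 1.55) under 6000 UMIs. Tnfrsf9 had 1.35 (1.22 to 1.49) in members and 0.880 in other non-B cells, and Bcl2a1b had 1.16 (1.04 to 1.28) and 0.841. Both belong to the genes that chose the members, and in matched members their ratios were 0.935 and 0.838.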

How the results depend on the processing

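The member share in spleen and lymph node was 10.4% and 9.88% with 3 of 13 genes, 3.16% and 2.76% with 5, 5.09% and 4.29% with Bcl2a1b and Bcl2a1d as 1 gene, and 1.496% and 1.204% with the rule at 1200 UMIs. Against 298 higher and 101 lower genes in both libraries, there were 698 and 328 without depth matching, 770 and 242 at 1200 UMIs, 123 and 53 at 50 CPM and 965 and 687 with no minimum. Lower genes numbered 153 with 5 of 13 genes, 163 scaled to the median ratio and 172 without cells holding other types' markers. Between tissues, against 301 and 150, there were 228 lower genes after matching, and 472 and 426 under 6000 UMIs. The ICRE share was 15.4% and 71.4% with the rule at 1200 UMIs, from 26 and 7 UMIs. Leaving out cycling cells, the limit of 6000 UMIs and the ICRE share of matched cells were chosen after seeing the data.

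Log2 ratios of these genes changed sign, and the cause was not tested. Without matching they were 1.48 and 1.71 for Birc5, 1.53 and 1.97 for Ccnb2 and 0.85 and 1.39 for Hmgb2 in spleen and lymph node. In spleen they were 0.0030 for Crip1, 0.31 for Lgals3, 0.33 for S100a6 and 0.13 for Vim, and in lymph node -0.0016 for Dusp2, -0.023 for Nfkbia and -0.013 for Tnfrsf18. At 1200 UMIs they were 1.21 and 1.21 for Birc5 and 2.39 and 2.29 for Ccnb2. In spleen they were 1.08 for H2-Aa, 0.72 for H2-Ab1 and -0.29 for Nop16, and in lymph node 0.57 for Ccr2, 0.95 for Dapl1, -0.078 for Ndufaf4, -0.33 for Relb, 0.13 for Rtp4 and -0.017 for Tnf, with 0.12 for the effector list's median. Without cells holding other types' markers they were 2.13 for H2-Aa, 1.55 for H2-Ab1 and -1.04 for Spp1 in spleen, and 0.12 for H2-Ab1 and -0.17 for Tnfrsf1b in lymph node. Birc5 was 1.05 in spleen without cycling cells, and Lgals3 0.69 in lymph node without cells above the 94th percentile of UMIs. Between tissues Nr4a3 was -0.60 after matching and Spp1 0.41 under 6000 UMIs. Between members with and without a Foxp3 or ICRE UMI in lymph node, Maf was -0.045 at 1000 UMIs and Myc -0.42 without thinning. Of the other settings for single genes against matched cells, 1549 stayed within the counting interval and 632 moved outside it. A change of sign was recorded only for genes at least 1.5-fold apart in the main setting. Genes under 1.5-fold among these 1549 and 632 may therefore have changed sign as well. List medians that changed sign without matching included those of immediate early genes, at -0.05 and -0.48, and of effector genes, at 0.36 in spleen. No paired analysis was possible because each tissue has 1 library. Depth limits every share of cells with a UMI, and genes under 20 CPM were not compared.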
